A study of Mus musculus with 12 samples.

Results

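Mif and Ddt, the 2 members of the macrophage migration inhibitory factor family, were followed among the 32285 genes counted in single cells of SCC35 tumours. Both were found by symbol in the feature lists of all 6 libraries, and their unique molecular identifiers (UMIs, each standing for 1 captured RNA molecule) were summed per hashtagged sample and per cell class. Mif encodes a secreted cytokine with a tautomerase fold that binds the receptor Cd74, with Cd44, Cxcr2, Cxcr4 and Ackr3 as partner receptors. Ddt encodes D-dopachrome tautomerase, a homologue with the same fold that is also a Cd74 ligand. Both are made by many cell types, and tumour cells and macrophages are known sources of Mif.

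The series profiled live cells sorted from dissociated tumours with the 10x Chromium 5′ chemistry, in which each sample is marked with a hashtag antibody before pooling. The groups used here are the lines labelled SCC35 Mif KO control 15 and 18 (control) and SCC35 Mif KO 19 and 24 (KO), sampled on days 0, 6, 10 and 16. Each line had its own library, and 2 mixed libraries held samples of several lines: lines 15, 18 and 19 in mixed library 1, and lines 18, 24 and WT in mixed library 2. The labels used here give neither the host's strain and age nor the part of Mif that was altered, and counts that fall outside an altered part would check nothing about it. Each line belongs to 1 group, with 2 lines a group, so the group and its lines cannot be told apart. Day 0 was present only in single-line libraries, and its samples held almost no host cells. Macrophages were 0.408% and T cells 0.141% of day 0 cells, against 10.6% and 4.84% on later days. In all, 45 samples could be separated by hashtag, 21 of control lines, 21 of KO lines and 3 named WT that the labels put in no group. They held 100459 cells with 1 hashtag, 224 to 4578 cells and 1975214 to 27576694 UMIs per sample. Nothing in the labels says that samples of a line came from separate animals, so p-values measure only the spread between these samples. Between 3.41% and 4.83% of the smaller library's cell barcodes also occurred in another library.

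Cells were assigned to classes by marker genes. Cells of the injected line carry no marker of their own here, so a line cell is a cell without host markers: 69447 cells were line cells, and they made up 95.7% of day 0 cells. The host classes with most cells were macrophages (10019, with C1qa, Adgre1 and Mrc1 among the markers), T cells (4563), monocytes (2232), osteoclast-like cells (935, Acp5 and Ctsk) and mature dendritic cells (429, Ccr7 and Ccl22). A further 10683 cells were unresolved. Levels are given as CPM, the usual depth-scaled count, from the UMIs summed over a sample's cells of a class, for samples with at least 20 such cells. In droplet libraries, RNA that floats free in the suspension adds UMIs to every cell, so a low level in a class is not by itself expression there.

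Mif and Ddt lie on the minus strand of chromosome 10 in mm10. Mif (ENSMUSG00000033307) spans chr10:75859353-75860240 and Ddt (ENSMUSG00000001666) spans chr10:75771230-75773414. In GENCODE M21 each has 1 protein-coding transcript of 3 exons, beside a further 2-exon transcript (protein-coding for Ddt, with a retained intron for Mif). Their starts are 86826 bases apart, and the glutathione transferase genes Gstt1, Gstt2, Gstt3 and Gstt4 lie between them. Transcripts of copies that resemble Mif, such as C230062I16Rik (99.4% identical over 508 bases) and Gm10169 (99.1% over 348), are not in the feature list, and reads from them cannot be told apart from Mif where they match. Gm16302, which is in the list, matches Mif at 98.1% over 157 bases. Gm20441 overlaps Ddt and matches it at 99.6% over 237 bases. The promoters are shown because both genes were compared in every class and differ in what they carry just before the start. The sequences are from RefSeq on GRCm38.p6, 5′ to 3′ on the minus strand, in lower case with motif matches in capitals. Mif is given over the 250 bases before its RefSeq start, at chr10:75860278-75860527. Ddt is given over 210 bases at chr10:75773415-75773624, since the last 40 bases of its window lie in exon 1 of GENCODE.
Mif: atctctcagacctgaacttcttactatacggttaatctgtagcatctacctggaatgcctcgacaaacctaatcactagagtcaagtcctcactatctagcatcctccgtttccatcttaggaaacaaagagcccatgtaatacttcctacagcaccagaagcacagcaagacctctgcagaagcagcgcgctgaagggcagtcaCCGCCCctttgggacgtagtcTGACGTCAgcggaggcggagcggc
Ddt: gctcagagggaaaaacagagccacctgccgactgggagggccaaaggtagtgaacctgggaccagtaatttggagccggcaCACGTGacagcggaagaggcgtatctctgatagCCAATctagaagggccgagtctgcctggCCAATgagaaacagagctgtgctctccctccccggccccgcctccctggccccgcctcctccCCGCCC
Capitals mark 4 motifs searched on both strands of the 250 bases before the start. The cAMP response element TGACGTCA occurred once before Mif, 24 bases upstream, and not before Ddt, and 1.6% of 27025 RefSeq promoters held it. The GC box GGGCGG occurred once before each gene, 45 bases upstream of Mif and 46 upstream of Ddt, read here on the other strand as CCGCCC, and 32.9% of promoters held it. The hypoxia response core ACGTG occurred in Ddt on both strands of a single CACGTG, so that its 2 matches overlap, and not in Mif (16.6% of promoters). The CCAAT box occurred in Ddt at 136 and 108 bases upstream and not in Mif (34.5% of promoters). A match is a description of these letters, not a bound site.

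Mif, the targeted gene, separated the line cells of the groups. Its level ran from 1762 over a median of 2293 to 3114 CPM in the 21 control samples (mean 2302 ± 370, SD) and from 45.2 over 252 to 737 CPM in the 21 KO samples (284 ± 235). All 21 KO samples lay below all control samples. With edgeR's quasi-likelihood test on the summed counts, with day as a term, Mif fell by 3.08 on the log2 scale (SE 0.32, Benjamini-Hochberg adjusted p = 4.49e-10). Mif is the targeted gene, so the outcome of its test in line cells was largely fixed in advance, and the values are a description. The same fit called 6576 of 12968 genes, 50.7% of those tested, so a call in line cells is not rare. With 1 sum per line, 2 against 2, the difference was -3.07 and did not pass (edgeR adjusted p = 0.613), and with such sums no call for Mif or Ddt in macrophages or T cells held either. The lines of a group differed in level: Mif was 2438 ± 407 CPM for line 15 (n = 11), 2152 ± 271 for line 18 (n = 10), 115 ± 97.5 for line 19 (n = 11) and 471 ± 194 for line 24 (n = 10). The 3 WT samples held 2240, 2445 and 2614 CPM, within the range of the control lines.

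Ddt in the same line cells differed little. It ran from 55.6 over 69.5 to 89.9 CPM in control samples (70.2 ± 9.84, n = 21) and from 53.0 over 60.7 to 75.3 CPM in KO samples (62.2 ± 5.53, n = 21). The groups overlapped: 2 KO samples lay below all control samples and 7 control samples above all KO samples. Ddt fell by 0.16 on the log2 scale (SE 0.06, edgeR adjusted p = 0.0178), a call that did not hold within either kind of library, without day 0 (log2 difference -0.10) or without line 15 (-0.10). The pooled line cells held 32.9 Mif UMIs for each Ddt UMI in control samples and 3.42 in KO samples, where the ratio ran from 0.954 in the library of line 19 to 11.5 for line 24 in mixed library 2.

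Single cells of the lines gave the same order. With every cell thinned to 1000 UMIs, a Mif UMI was seen in 80.1% of control and 18.0% of KO line cells, and in 92.2% and 50.6% before thinning, when the median depth was 6638 and 6514 UMIs per cell. Thinning left out 1320 control and 2077 KO line cells that were shallower. Per sample the thinned share ran from 70.4% to 88.5% in control and from 4.19% to 41.1% in KO samples, which did not overlap. A Ddt UMI was seen in 6.19% of control and 5.89% of KO line cells after thinning. No class gated here is known to lack Mif, so no class serves as a background level for these shares. Cells with at least 2 Mif UMIs after thinning, the control median, made up 45.1% to 73.5% of line cells in control samples and 0% to 16.3% in KO samples. By line in the single-line libraries, such cells were 63.0% for line 15, 56.2% for line 18, 0.704% for line 19 and 6.73% for line 24.

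The Mif level of the KO line cells was higher in the mixed libraries, a difference that did not pass after adjustment. In line 19 it was 58.0 ± 9.47 CPM in the 8 samples of its own library and 266 ± 11.9 in the 3 samples of mixed library 1. In line 24 it was 361 ± 95.2 CPM in 7 samples of its own library and 729 ± 11.7 in 3 samples of mixed library 2. These own-library means include day 0, while the permutation tests below and the control values beside them use days after 0. On those days the own-library means were 62.0 ± 6.92 CPM for line 19 (n = 6) and 413 ± 39.4 for line 24 (n = 5). On days after 0 every mixed sample lay above every single-line sample in both lines, with exact 2-sided permutation p = 0.0119 for line 19 and 0.0179 for line 24, the smallest these sizes allow, and adjusted p = 0.134 over 30 such tests for each. Both control lines moved the other way: line 15 from 2474 to 1972 CPM (exact permutation p = 0.0119, adjusted 0.134) and line 18 from 2179 to 1919 CPM (exact permutation p = 0.0952, adjusted 0.231). Library-wide Mif over all cells was 2414 CPM in the library of line 15, 2092 in that of line 18, 120 in that of line 19, 431 in that of line 24, 1053 in mixed library 1 and 1859 in mixed library 2. So the library-wide level was higher in the mixed library than in the own library for both KO lines, and its part in the line cell values was not tested. Library-wide Ddt was 62.4 to 79.7 CPM in all 6 libraries.

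The X-linked RNA Xist gave a measure of host RNA or host cells among the line cells, since it was at 0.702 to 4.38 CPM in day 0 line cells and at 278 to 479 CPM in host classes. Its level in line cells on later days was 1.61% of that in host classes in the library of line 19 and 6.94% in that of line 24, against 3.57% and 3.86% in those of lines 15 and 18. The same share for the C1q genes was lower, at 0.256%, 1.08%, 0.0936% and 0.316% in the libraries of lines 19, 24, 15 and 18. C1q genes are gate markers and a line cell held at most 1 marker of any class, so the gate bears on that share. Mif in the line cells was 7.57% of the host-class level in line 19 and 47.1% in line 24 in the same libraries. At day 0 the Mif values were 5.60% and 25.5%, beside Xist shares of 0.207% and 1.13%. In the mixed libraries Mif reached 29.2% in line 19 and 58.0% in line 24, with Xist at 2.15% and 6.46%. Ddt in line cells was 46.9% to 78.9% of its host-class level over all lines and libraries. The part of host RNA or host cells in the Mif level of KO line cells was not tested.

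**Figure D1:**
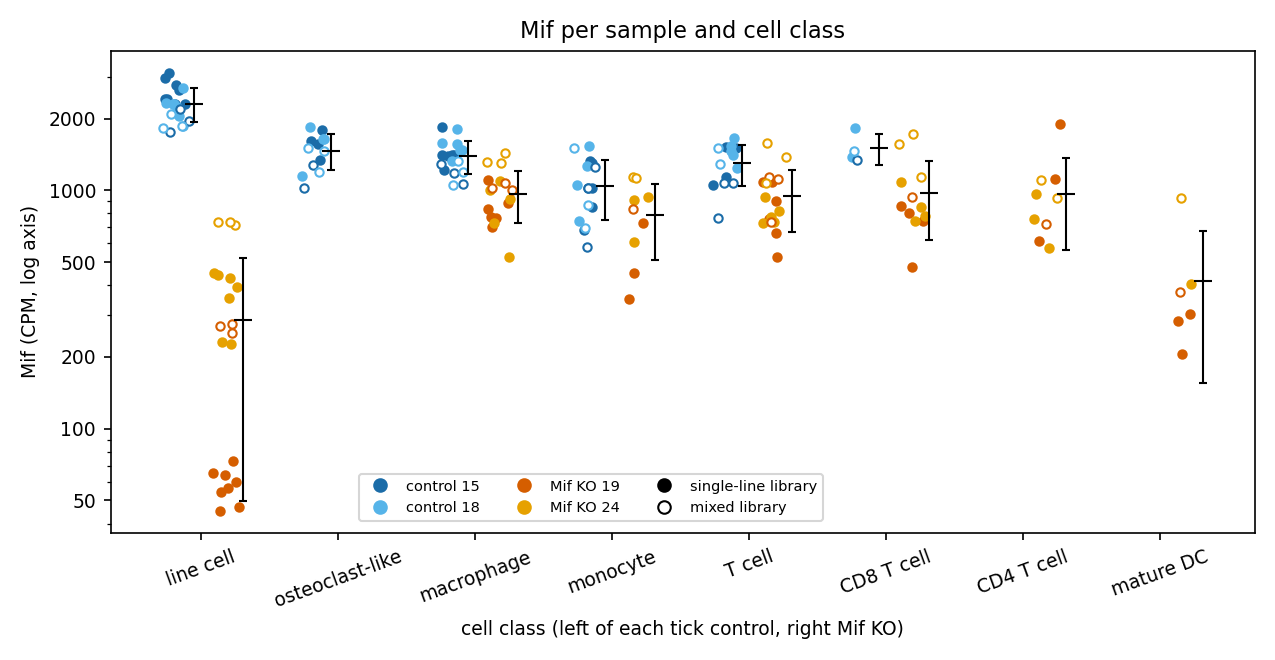
Mif level (CPM, logarithmic axis) in each sample by cell class, control samples on the left and KO samples on the right of each class, filled for single-line and open for mixed libraries, with the mean ± SD in black. Line cells fall from 1762 to 3114 CPM in control samples to 45.2 to 737 in KO samples, while host classes of KO samples overlap those of control samples.

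Host cells of the KO tumours carried Mif. In macrophages it ran from 1057 over 1393 to 1847 CPM in 18 control samples (1390 ± 217) and from 527 over 1001 to 1427 CPM in 17 KO samples (969 ± 240). The groups overlapped, with 11 KO samples below all control samples and 6 control samples above all KO samples. Mif fell by 0.46 on the log2 scale in macrophages (SE 0.10, edgeR adjusted p = 0.00065), in a test that called 2392 of 7287 genes, 32.8%. By line the means were 1357 ± 220 (line 15), 1422 ± 222 (line 18), 907 ± 147 (line 19) and 1039 ± 310 CPM (line 24), and the call did not hold without line 19 (log2 difference -0.33). The 3 WT samples held 1271, 1423 and 1482 CPM in macrophages.

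T cells, gated by the chains of the CD3 complex and the T cell receptor, held Mif at 765 over 1349 to 1653 CPM in 14 control samples (1300 ± 253) and at 524 over 902 to 1571 CPM in 17 KO samples (942 ± 271). There 6 KO samples lay below all control samples and 1 control sample above all KO samples. Mif fell by 0.42 in T cells (SE 0.12, edgeR adjusted p = 0.0166), where 280 of 3266 genes, 8.57%, were called. The call did not hold without line 18 (log2 difference -0.19) or without line 19 (-0.29). Nor did it hold without the filter on low counts or with the gate threshold doubled (-0.25 each), or without the cells of most UMIs (-0.32). Among CD8 T cells, 10 of 12 KO samples lay below all 4 control samples, at 475 over 857 to 1729 CPM (975 ± 358) against 1335 over 1419 to 1822 (1499 ± 222). The difference of -0.61 (SE 0.24) did not pass edgeR's test (adjusted p = 0.201), which called 2.36% of 1903 genes in CD8 T cells, and passed without line 24 at -0.97 (adjusted p = 0.0459). Over the alternatives it ran from -0.97 to -0.07. In their own libraries lines 19 and 24 held 719 and 865 CPM (4 samples each) and line 18 held 1600 (2 samples). In the mixed libraries they held 935 (1 sample) and 1476 (3 samples), against 1335 and 1461 for lines 15 and 18 (1 sample each).

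In monocytes, Mif ran from 579 over 1024 to 1530 CPM in 16 control samples (1045 ± 296) and from 349 over 838 to 1133 CPM in 9 KO samples (787 ± 277). The difference of -0.38 (SE 0.17, edgeR adjusted p = 0.178) did not pass, in a test that called 9.79% of 3514 genes. It was -0.15 without line 19 and -0.88 without line 24 (edgeR adjusted p = 0.695 and 0.107), and with hashtags called by the ratio of the highest to the next it passed at -0.77 (adjusted p = 0.00818). Of 17 alternatives that 1 alone passed, and the values ran from -0.88 to 0.13. Osteoclast-like cells were frequent enough only in control samples, where Mif ran from 1020 over 1506 to 1851 CPM (1465 ± 253, n = 13). The 27 osteoclast-like cells of all KO samples together held 1619 CPM, with an exact Poisson interval of 1430 to 1827. Mature dendritic cells held Mif at 206 over 339 to 930 CPM in 6 KO samples (417 ± 261), 3 of them from the library of line 19. Pooled by line and library, they ranged from 267 CPM in that library to 1096 for line 24 in mixed library 2, with 393 to 807 in control lines. CD4 T cells of 9 KO samples held 964 ± 403 CPM.

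The KO-control difference in host classes was then read within each kind of library. In macrophages of the single-line libraries, the 12 control samples held 1491 ± 183 CPM and the 11 KO samples 849 ± 176, and Mif fell by 0.76 (edgeR adjusted p = 2.15e-05). In the mixed libraries, the 6 control samples held 1187 ± 112 CPM and the 6 KO samples 1189 ± 180, a log2 difference of 0.06 (edgeR adjusted p = 0.853). With library and day as a block, the mixed libraries gave -0.065 (edgeR adjusted p = 0.789, 6 against 5 samples). So the macrophage gap of the single-line libraries was not seen in the mixed ones. In T cells of the single-line libraries Mif was 1390 ± 202 CPM in 9 control and 819 ± 173 in 11 KO samples and fell by 0.69 (edgeR adjusted p = 0.000671). In T cells of the mixed libraries it was 1138 ± 275 CPM in 5 control and 1167 ± 284 in 6 KO samples, a log2 difference of 0.05 (edgeR adjusted p = 0.980), and -0.18 with that block (adjusted p = 0.773, 5 against 4 samples). A term for the difference between the kinds of library was 0.80 for macrophages (SE 0.17, edgeR adjusted p = 0.0521). For T cells it was 0.67 (SE 0.22, edgeR adjusted p = 0.229), so neither passed over all genes. In monocytes the difference was -0.60 in single-line (edgeR adjusted p = 0.0549) and 0.13 in mixed libraries (adjusted p = 0.929). Line cells had the gap in both kinds, which is a description, since Mif is their targeted gene. There Mif fell by 3.69 in single-line (edgeR adjusted p = 1.80e-08) and by 1.94 in mixed libraries (adjusted p = 0.0192). Within mixed library 1 it fell by 2.85 (edgeR adjusted p = 9.29e-05, 4 against 3 samples) and within mixed library 2 by 1.41 (adjusted p = 0.00423, 2 against 3).

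For Ddt, no difference between the kinds of library passed. In macrophages its log2 difference was -0.39 in single-line (edgeR adjusted p = 0.0729) and -0.42 in mixed libraries (adjusted p = 0.240). The term for the difference between kinds was -0.08 for Ddt in macrophages, and its edgeR adjusted p was 0.877 or above in all 5 classes.

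**Figure D2:**
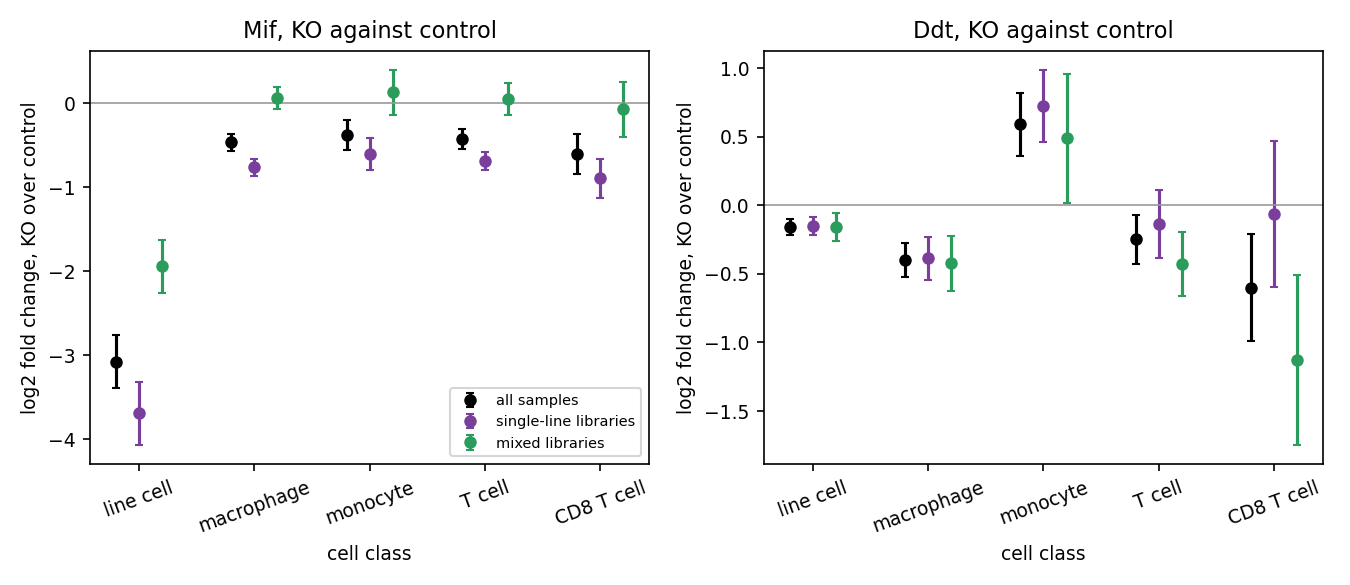
Log2 fold change of Mif and Ddt, KO against control, with an SE derived from the test's F statistic, in 5 cell classes, from all libraries, single-line libraries alone and mixed libraries alone. Mif in macrophages is at -0.46, -0.76 and 0.06, while Mif in line cells stays below 0 in all 3.

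The macrophages of the same line were then compared between the kinds of library on days after 0. Mean Mif was lower in the mixed libraries for the control lines (1446 against 1180 CPM for line 15, 1536 against 1195 for line 18) and higher for the KO lines (844 against 1031 for line 19, 855 against 1348 for line 24). The exact permutation p-values were 0.0952, 0.0238, 0.0833 and 0.0357, and none passed after adjustment over 30 tests. In mixed library 2, the pooled macrophages of line 24 and of the WT samples held 1376 and 1374 CPM, and those of line 18 held 1214. In mixed library 1, they held 1129 (line 15), 1057 (line 18) and 1024 CPM (line 19). Macrophage Mif in the 4 single-line libraries was 1436, 1500, 830 and 972 CPM for lines 15, 18, 19 and 24, beside library-wide Mif of 2414, 2092, 120 and 431 CPM. A set of 20 genes high in day 0 cells relative to macrophages stood in macrophages at 23.1%, 33.4%, 35.0% and 40.7% of its line-cell level in the same 4 libraries. That share times the Mif of the line cells came to 580, 717, 21.5 and 172 CPM for lines 15, 18, 19 and 24, and macrophage Mif less that product to 856, 784, 809 and 799 CPM. For T cells the same difference was 632, 543, 887 and 668 CPM. The 20 genes were picked by their levels in these same data, so the share is not an independent measure of line RNA. The arithmetic takes all macrophage or T cell UMIs of the 20 genes as line RNA, has 1 value per library and was not tested. In macrophages of mixed library 1 the share was 27.7%, 25.1% and 37.3% for lines 15, 18 and 19. In mixed library 2 it was 27.5% and 29.7% for lines 18 and 24. The product was taken in neither, so the differences above cover the single-line libraries alone and say nothing about the mixed ones. Line-cell Mif was 1922, 1860 and 266 CPM for lines 15, 18 and 19 in mixed library 1. It was 1909 and 728 CPM for lines 18 and 24 in mixed library 2. Line identity and single-line library cannot be told apart.

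**Figure D3:**
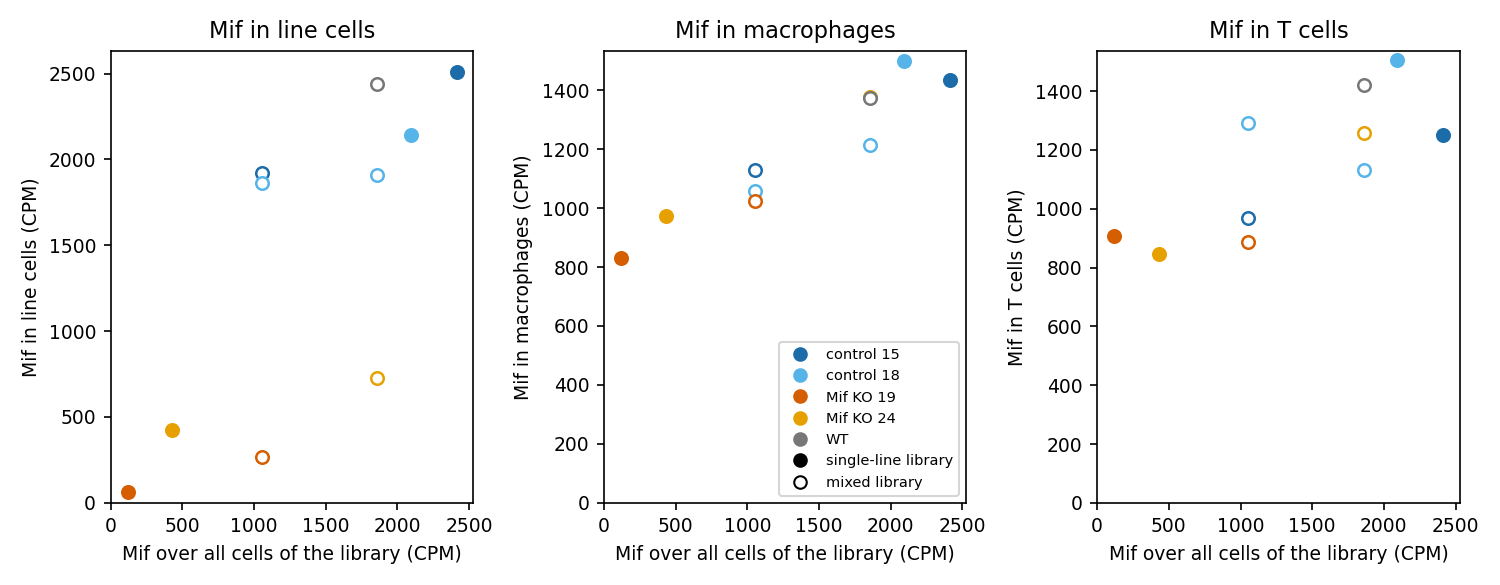
Pooled Mif level (CPM) in line cells, macrophages and T cells against the library-wide Mif level of the same library, each point 1 line in 1 library, WT included. The macrophage points of the KO lines are at 830 and 972 CPM in their own libraries and at 1024 and 1376 CPM in the mixed ones.

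Host cells carried Ddt as well. In macrophages it ran from 77.3 over 131 to 204 CPM in 18 control samples (130 ± 35.8) and from 61.3 over 87.4 to 135 CPM in 17 KO samples (90.9 ± 19.8). The groups overlapped, with 5 KO samples below all control samples and 8 control samples above all KO samples. Ddt fell by 0.40 in macrophages (SE 0.13, edgeR adjusted p = 0.0128), and the call did not hold within either kind of library or without line 15 (log2 difference -0.25), line 19 (-0.41) or line 24 (-0.37). By line the means were 140, 119, 98.0 and 83.0 CPM for lines 15, 18, 19 and 24.

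In T cells Ddt was 98.7 ± 40.0 CPM in 14 control and 76.6 ± 20.3 in 17 KO samples, a difference of -0.25 (edgeR adjusted p = 0.419) that was 0.14 without line 15. Monocytes had the opposite sign, with 16 over 51.2 to 119 CPM in 16 control samples (54.4 ± 25.6) and 35.1 over 74.3 to 134 CPM in 9 KO samples (84.2 ± 31.2). Its log2 difference of 0.59 there (SE 0.23) did not pass edgeR's test (adjusted p = 0.105), and 2 KO samples lay above all control samples. It was 0.21 over samples with at least 50 cells (edgeR adjusted p = 0.749, 6 against 7 samples), and -0.17 in the mixed libraries with library and day as a block (adjusted p = 0.994, 2 against 2). In CD8 T cells Ddt was 125 ± 42.2 CPM in 4 control and 78.0 ± 36.5 in 12 KO samples (difference -0.60, edgeR adjusted p = 0.495). Over 13 alternatives that difference ran from -1.13 to -0.06, and none passed.

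Mature dendritic cells, the form that migrates to lymph nodes, had the highest Ddt among the classes of KO samples with enough cells. It ran from 157 over 370 to 524 CPM in 6 KO samples (342 ± 145), and was above macrophage Ddt in 6 of 6 of them, by 1.73 on the log2(CPM + 1) scale (exact sign-flip permutation p = 0.03125, the smallest 6 samples allow, adjusted p = 0.0827). This pair of classes, like that of osteoclast-like cells and macrophages below, was picked from the order of means in the same samples. Pooled mature dendritic cells held 355 CPM of Ddt in 130 control cells (Poisson interval 300 to 417) and 301 in 272 KO cells (268 to 338). The control value mixes unlike lines: 434 CPM for line 15 in its own library and 475 in mixed library 1. Line 18 held 130 CPM in its own library (71.1 to 218, 14 UMIs). In KO lines it ran from 187 CPM for line 19 in mixed library 1 to 350 in that line's own library. Osteoclast-like cells of 13 control samples held 104 over 166 to 254 CPM (173 ± 51.1), above the macrophages of the same sample in 10 of 13 (log2 difference 0.44, permutation p adjusted 0.00790). Type 2 conventional dendritic cells also held Ddt, at 247 CPM in control (177 to 337) and 223 in KO cells (167 to 293), the latter 132 without the library of line 19 (76.7 to 211). Pooled neutrophils were at the low end: 2 Ddt UMIs, 10.0 CPM (1.21 to 36.2), both from the library of line 15, stood beside 1268 CPM of Mif (1117 to 1434) in control neutrophils. These are shallow cells, with a median of 729 UMIs. In the 1 control sample with at least 20 neutrophils (23 cells, line 15), Ddt was at 54.3 CPM and Mif at 489. These pooled values carry counting error only and have no test between groups.

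**Figure D4:**
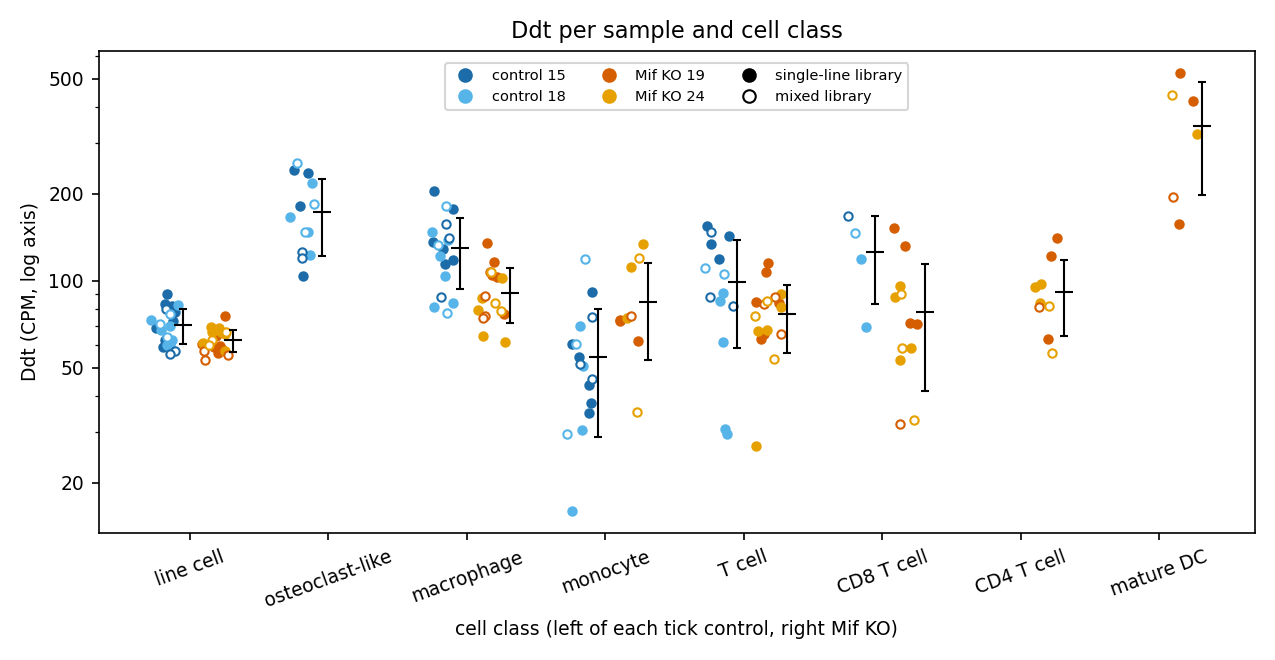
Ddt level (CPM, logarithmic axis) in each sample by cell class, control samples on the left and KO samples on the right of each class, filled for single-line and open for mixed libraries, with the mean ± SD in black. Mature dendritic cells of KO samples average 342 CPM and line cells 62.2.

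The balance of the pair was read in the pooled cells of each class. Pooled macrophages held 11.7 Mif UMIs per Ddt UMI in control and 11.2 in KO samples, and T cells 13.4 and 12.0. By line and library the macrophage ratio ran from 8.75 to 15.0 in control and from 8.09 to 14.2 in KO lines. That of T cells ran from 9.0 to 23.3 and from 9.69 to 16.4, so the pooled values hide a wide spread. Mature dendritic cells held 1.64 and 1.75, and the ratio moved with the library: in KO cells it ran from 0.762 in the library of line 19 to 3.76 for line 24 in mixed library 2, with 395 Mif and 145 Ddt UMIs in all without the library of line 19, and in control cells from 0.905 in the library of line 15 to 5.93 in that of line 18. Control osteoclast-like cells held 8.32. Monocytes held 17.0 and 10.2. Over all cells the ratio was 27.8 in control and 4.84 in KO samples, from 1.92 in the library of line 19 to 12.6 for line 24 in mixed library 2. A Ddt UMI was seen in 22.5% of control and 22.4% of KO mature dendritic cells thinned to 1000 UMIs, above the 6.19% and 5.89% of line cells at the same depth.

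The order of classes by Mif differed between the groups. Neighbouring classes, here and for Ddt, were picked from the order of means in the same samples. Their p-values are thus not independent tests of the order. In control samples it ran from line cells over osteoclast-like cells, macrophages and T cells to monocytes. Line cells exceeded osteoclast-like cells by 0.55 on the log2(CPM + 1) scale in 13 of 13 samples (permutation adjusted p = 0.00108), while osteoclast-like cells and macrophages (0.12, adjusted p = 0.0993), macrophages and T cells (0.11, 0.163) and T cells and monocytes (0.28, 0.0969) were not separated. In KO samples the order was macrophages, T cells, monocytes, mature dendritic cells and line cells. Only classes with enough samples were ranked, so osteoclast-like cells are in the control order alone and mature dendritic cells in the KO order alone. The pooled osteoclast-like cells of KO samples, given above, held more Mif than the mean of any class in the KO order. Macrophages and T cells differed by 0.05 (permutation adjusted p = 0.569), T cells exceeded monocytes in 8 of 9 samples (0.48, exact adjusted p = 0.0469), and mature dendritic cells exceeded line cells in 5 of 6 (1.10, exact adjusted p = 0.0833).

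For Ddt the order in control samples was osteoclast-like cells, macrophages, T cells, line cells and monocytes. Macrophages exceeded T cells in 9 of 14 samples (0.41, permutation adjusted p = 0.0480) and line cells exceeded monocytes in 14 of 16 (0.47, adjusted p = 0.00790), while T cells and line cells were not separated (0.37, adjusted p = 0.0929). In KO samples mature dendritic cells led, followed by macrophages, monocytes, T cells and line cells, and no neighbours passed (permutation adjusted p = 0.0827 to 0.469, exact below 10 samples).

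Whether the KO-control difference differed between classes was tested on differences within a sample, in 10 permutation tests. Mif in line cells stood 0.67 above macrophages in control and 2.12 below them in KO samples, a change of -2.78. The change was -2.85 against T cells and -2.74 against monocytes. Mif is the targeted gene of the line cells, so the outcome of these tests was largely fixed in advance, and the changes are a description. Between macrophages and T cells (-0.06, permutation adjusted p = 0.708) and macrophages and monocytes (-0.07, adjusted p = 0.724) no difference passed. Ddt in line cells stood 0.87 below macrophages in control and 0.52 below in KO samples, a change of 0.36 (permutation adjusted p = 0.0067). Line cells against monocytes changed by -0.79 for Ddt (permutation adjusted p = 0.00584), and macrophages against monocytes by -1.22 (adjusted p = 5.51e-05). Both contrasts rest on the monocyte values above, whose KO-control difference did not pass. Line cells against T cells (0.13, permutation adjusted p = 0.702) and macrophages against T cells (-0.14, adjusted p = 0.700) did not pass for Ddt.

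Host classes held a larger part of the Mif of KO tumours. On days after 0 they were 22.1% ± 7.80 of cells in 18 control and 20.6% ± 8.57 in 17 KO samples (permutation p = 0.596). They held 3.07% over 8.80% to 19.9% of all Mif UMIs in control samples (8.97% ± 4.37) and 11.9% over 27.9% to 43.1% in KO samples (28.1% ± 9.10). The difference of 19.1 percentage points is a description, with no test: the total holds the line cells, in which Mif is the targeted gene, and the share of the other classes rises with a lower line cell part whatever their own level, which in macrophages was 1390 CPM in control and 969 in KO samples. The 4 line means were 9.004%, 8.94%, 27.8% and 28.4% for lines 15, 18, 19 and 24. In the mixed libraries alone the shares were 10.5% and 20.02% (6 samples each). Line cells held 85.2% ± 5.61 of Mif in control and 51.2% ± 11.6 in KO samples, and unresolved cells 5.66% and 19.5%. Line cells were 67.4% and 65.2% of the cells.

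Macrophages and T cells held most of the host Mif of KO samples, and macrophages that of control samples. Macrophages were 13.3% of cells and held 5.49% ± 3.63 of Mif in control samples, against 7.40% of cells and 11.9% ± 5.96 of Mif in KO samples (permutation p = 0.00436 for cells, adjusted over 14 quantities). Of the host Mif of KO samples, macrophages held 44.7%, T cells 31.2%, monocytes 8.38% and fibroblasts 4.76%. These pool all KO samples: for line 24 in mixed library 2 T cells held 39.0% and macrophages 37.6%, and in the library of line 19 macrophages held 33.0% and T cells 30.9%. Within that of control samples, macrophages held 62.1%, osteoclast-like cells 21.6%, monocytes 5.41% and T cells 4.56%. Host Ddt of KO samples lay in macrophages (41.0%) and T cells (26.9%), and mature dendritic cells, 2.93% of host cells, held 12.4% of it against 2.09% of host Mif.

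The host share of Ddt was lower in KO samples, a difference that did not pass after adjustment. It was 8.07% over 20.3% to 47.8% in control (21.7% ± 9.63) and 4.76% over 12.7% to 33.8% in KO samples (15.0% ± 8.90), a permutation p of 0.0402 (adjusted 0.0703). Line 19 had the low values, at 8.70% ± 2.87, against 22.1% ± 7.92 for line 24, 24.3% ± 10.9 for line 15 and 19.1% ± 7.92 for line 18. Line cells held 71.3% of Ddt in control and 73.1% in KO samples (permutation p = 0.680).

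**Figure D5:**
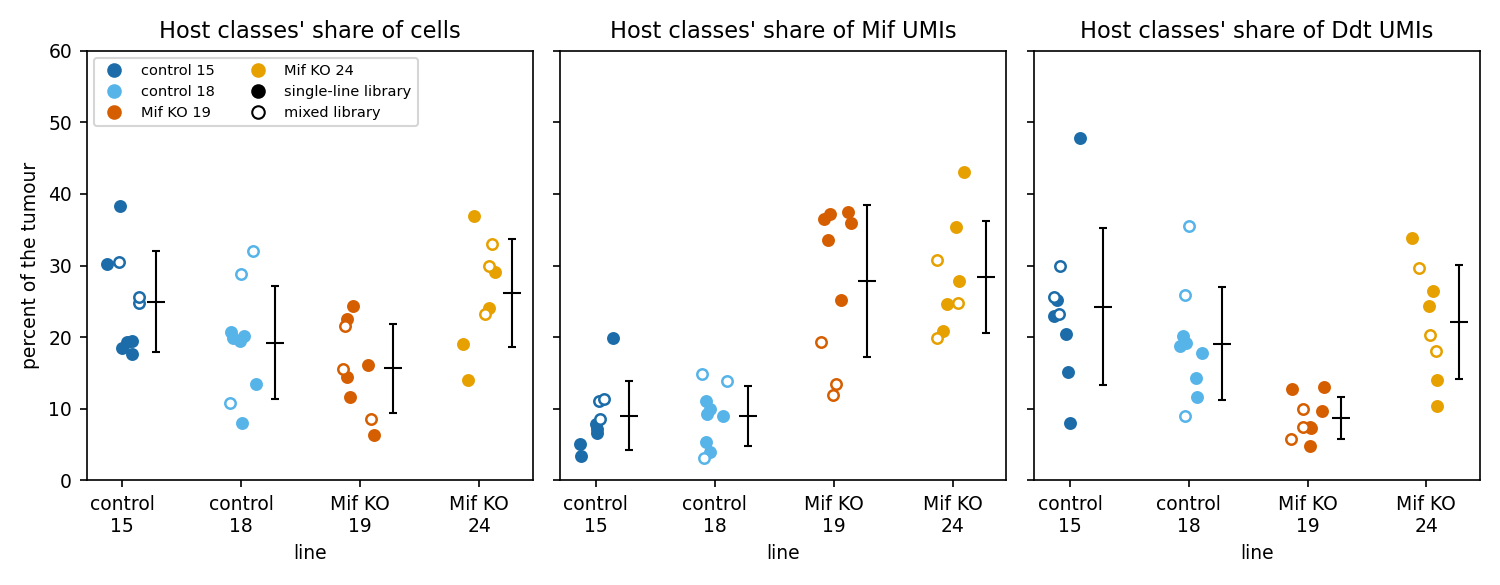
Percent of cells, of Mif UMIs and of Ddt UMIs that lie in host classes, per sample of days after 0 by line, with the mean ± SD. The means for Mif are 9.004 and 8.94 in lines 15 and 18 and 27.8 and 28.4 in lines 19 and 24, while the percent of cells overlaps over all 4 lines.

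In line cells of the single-line libraries, Mif differed between day 0 and day 16 in opposite directions in the 2 groups. The day 0 samples held almost no host cells, so these differences cannot be read as a course within tumours. Mean Mif on days 0, 6, 10 and 16 was 3030, 2597, 2472 and 2352 CPM for line 15 and 2690, 1958, 2315 and 2265 for line 18. It was 46.0, 69.1, 57.0 and 59.9 CPM for line 19 and 229, 354, 439 and 416 for line 24. From day 0 to day 16 Mif fell by 0.36 in control samples (SE 0.08, edgeR adjusted p = 0.000963, 3 against 4 samples), where 54.3% of 12454 genes were called. Mif rose by 0.79 in KO samples (SE 0.12, edgeR adjusted p = 5.11e-05, 4 against 4), where 49.2% of 13099 genes were called, by 0.56 in line 19 alone and by 0.99 in line 24 alone. The difference of the 2 changes was 1.11 (SE 0.15, edgeR adjusted p = 1.70e-06), and 40.6% of 13303 genes passed that test. The Xist share of line cells, read above as host RNA or host cells, moved with day in the same libraries. The share went from 0.207% at day 0 to 1.61% later in line 19 and from 1.13% to 6.94% in line 24. It went from 0.252% to 3.57% in line 15 and from 0.792% to 3.86% in line 18, so it was higher later in all 4 lines, and its part in the Mif change was not tested.

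Ddt was read in the same way. Its means on the 4 days were 82.4, 83.8, 67.6 and 63.7 CPM for line 15, 82.6, 60.2, 70.4 and 66.0 for line 18, 57.9, 70.8, 58.2 and 62.3 for line 19 and 67.4, 57.2, 67.8 and 63.2 for line 24. Ddt fell by 0.37 in control samples (SE 0.12, edgeR adjusted p = 0.0130), and in KO samples the difference was 0.15 (SE 0.10, adjusted p = 0.227). By line, the fall passed in line 15 alone (-0.40). In line 18 alone it was also -0.40, with 1 day 0 sample, too few to judge a call. Ddt rose by 0.28 in line 19 alone (edgeR adjusted p = 0.0172), with 0.04 in line 24 alone (adjusted p = 0.724). The difference between the groups was 0.48 (SE 0.16, edgeR adjusted p = 0.0159).

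The receptors listed for Mif were read from the same fits. In line cells 4 of the 5 receptor genes were tested, 2 rose and 2 fell, with a median of 0.54 against 0.02 over all genes, of which 50.7% were called. Cd74, which Mif and Ddt both bind, rose by 1.96 (SE 0.42, edgeR adjusted p = 1.77e-04), from 65.6 ± 56.8 CPM to 237 ± 311 (n = 21 each), and by line it was 51.3, 81.4, 68.4 and 423 CPM for lines 15, 18, 19 and 24. Line 24 also had the highest Xist share, and that share's part in the Cd74 level was not tested. Cxcr4, a chemokine receptor, rose by 1.30 at levels of 0.789 and 1.90 CPM, with 3.52 CPM for line 24 and 0.433 for line 19, which lay below both control lines (0.688 and 0.900). Cd44, the Cd74 co-receptor, fell by 0.22, and Ackr3, a chemokine scavenger, by 0.58. Cxcr2 did not pass the filter on low counts. In macrophages Cd74 rose by 1.11 (edgeR adjusted p = 3.80e-05), from 4330 ± 1930 to 9402 ± 4185 CPM, and it was the only 1 of 3 receptor genes tested that passed, where 32.8% of all genes did. In monocytes Cd74 rose by 0.70 and Cxcr4 by 0.95 (2 of 3 tested, against 9.79% of all genes), with line 19 within the control lines for Cxcr4. In T cells Cxcr4 rose by 1.44, 1 of 3 receptor genes tested, against 8.57% of all genes. In CD8 T cells 2 were tested and 0 passed edgeR's test, where 2.36% of all genes did.

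Genes whose products bind or handle the Mif protein were read next. Of 7 in line cells, 1 rose and 3 fell (median -0.17 against 0.02 over all genes), and 4 of 7 is near the 50.7% called over all genes. Hsp90aa1, a chaperone gene, rose by 0.45, with 1867 CPM for line 19 and 1054 for line 24, which lay below both control lines (1152 and 1063). Cops5, a subunit of the COP9 signalosome, fell by 0.26, Hsp90ab1, another chaperone gene, by 0.17, and Stub1, a ubiquitin ligase, by 0.25. In macrophages 2 of 6 rose (Hsp90aa1 by 0.36, and Uso1, a vesicle tether, by 0.26) and 1 fell (Stub1, by 0.33), against 32.8% of all genes, and line 24 lay within the control lines for Hsp90aa1. In monocytes, against 9.79% of all genes, 2 of 6 rose (Rps19, a ribosomal protein, by 0.31, and Hsp90aa1 by 0.38). Of 4 genes for regulators of Mif transcription in line cells, Hif1a, the hypoxia factor, rose by 0.44 and Sp1, a GC box factor, by 0.19, and Uhrf1 fell by 0.43, with a median of 0.14, against 50.7% of all genes called. Line 19 lay within the control lines for Sp1. In macrophages Hif1a rose by 0.37 and the other 3 did not pass, against 32.8% of all genes called. Of the 13 protein-coding neighbours within 100 kb of either start, 8 were tested in line cells and 3 fell (Gstt3 by 0.36, the metalloprotease gene Mmp11 by 0.29, the chromatin remodeller gene Smarcb1 by 0.13), with a median of -0.20. Over all genes 50.7% were called, and line 19 lay within the control lines for Smarcb1. Gstt2 fell by 0.92 in macrophages, the only 1 of 5 neighbours tested that passed there, against 32.8% of all genes. Chchd10 fell by 0.78 in T cells, 1 of 3 tested, against 8.57%.

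Over the means of 7 cell classes, 2919 genes with enough UMIs were set beside the pair. The 5 most like Mif by Pearson's r were Ewsr1, Agpat5 (0.99 each), Akr1b3, Gm16286 and Tmem147 (0.98 each), and those most like Ddt were Lactb (0.96), Sod1 (0.95), Rogdi, Socs2 and Mapre2 (0.89 each). Lactb, Rogdi and Socs2 stood at 500, 353 and 592 CPM in mature dendritic cells, where Ddt was also highest. Elsewhere they reached at most 100, 22.4 and 24.6 CPM. They met the limit on mean CPM through that class, so their likeness to Ddt rests on it. Mif and Ddt themselves had r = -0.59 and Spearman's rho = 0.11. The means pool both groups, so that line cells enter at 1293 CPM of Mif, between the 2302 of control and the 284 of KO samples, while osteoclast-like cells come from control and mature dendritic cells from KO samples only. KO line cells are thus part of these profiles, which are descriptions over 7 points that share libraries, with no test.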

How the data were processed

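Cells of the tumours were hashtagged, sorted live and profiled with the 10x 5′ kit, per the labels' protocols. For each of the 6 libraries the authors deposited a matrix of unnormalised UMI counts, with genes and barcodes listed beside it. Cell Ranger 6.0.0 and mm10 are named in the submitters' processing notes, and no source used here gives the annotation. A deposited sheet pairs each hashtag with a line, day and letter. The members and gene lists were chosen with earlier results of these data known, and the gate thresholds were set after seeing the data.

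A barcode passed with 300 or more genes and no more than 15% mitochondrial counts. HTODemux (Seurat 5.3.0) assigned hashtags, 2 hashtags of very few counts were left out, and hashtag doublets, 17.94% to 30.93% of passing cells, were removed, while doublets within a sample remain. A cell entered a class with at least 3 of its markers (2 for T cells and for lists of at most 4 markers) and at least 5 marker UMIs per 10000. Of 89 markers, 9 were seen in over 5% of day 0 cells and were not used. Where related classes both passed, 1 took precedence (osteoclast-like over macrophage over monocyte). A line cell had no Ptprc, passed no gate and held at most 1 marker of any class.

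Counts were summed per sample and class (at least 20 cells, 3 samples per group) and fitted in edgeR 4.0.16 (filterByExpr, TMM, glmQLFit, glmQLFTest, R 4.3.3) with day and group, at a Benjamini-Hochberg adjusted threshold of 0.05 over all genes tested. Fold changes are log2, KO over control. The SE given with an edgeR fold change is its absolute value divided by the square root of the test's F statistic. It is not a standard error estimated by the fit. Differences within samples used log2(CPM + 1) and 2-sided permutation with 100000 resamples or exact enumeration (scipy 1.17.1, numpy 2.4.6). Host shares used samples of days after 0 with at least 200 cells. Poisson intervals are exact at 95%. The named genes are Mif and Ddt, with the receptors, handling proteins and transcriptional regulators listed for Mif. They also include protein-coding genes starting within 100 kb of Mif or Ddt, and the 5 genes of highest Pearson correlation over classes (mean of at least 50 CPM). The fit was checked on simulated data with 200 genes changed, drawn without line or library effects. The check thus says nothing about calls that arise from lines or libraries. The host share of Ddt, the counting of unresolved cells as host and the tests of differences between kinds of library, between groups over days and between classes, and the blocks by letter and by library and day, were added after seeing the data. Alternatives included DESeq2 1.42.0, RLE scaling, sums per line and other filters.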

Additional observations from a re-analysis of the deposited data

Results flagged for a closer look

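In macrophages of line 15, 1 sample stood apart from the other 8: the day 6 sample A of the single-line library held 1847 CPM of Mif in 228 macrophages, against 1412 CPM in the next. The host share of Mif UMIs in line 15 also had 1 sample apart, the day 16 sample A of the same library, at 19.9% against 11.3% in the next. In all, 54 groups of 4 to 10 samples were examined in this way and 2 stood apart, and chance sets apart about 1 group in 20.

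The KO-control difference of Mif differed between line cells and each host class tested, by -2.78 on the log2 scale against macrophages, -2.85 against T cells and -2.74 against monocytes. Mif is the targeted gene of the line cells, so these Mif values are a description. For Ddt, the difference of line cells was 0.36 higher than that of macrophages and lower than that of monocytes, at -0.79, and macrophages stood at -1.22 against monocytes. The change from day 0 to day 16 in line cells also differed between the groups, by 1.11 for Mif and by 0.48 for Ddt, KO minus control. These values come from the tests of the difference given above.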

How the results depend on the processing

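Of 242 alternatives over 21 results, 182 were labelled the same. For fold changes and host shares this means the same direction and side of the threshold. For numbers of genes called it means only a count close to that of the main fit. Host shares were labelled by the unadjusted permutation p, also that of Mif, which is given above as a description only. The cause was not tested for any alternative that was not the same. With 1 sum per line, no gene was called in line cells, macrophages or T cells (0 each by edgeR, with 1221, 2601 and 780 at an unadjusted p under 0.05), and log2 differences were -3.07 and -0.16 for Mif and Ddt in line cells, -0.38 and -0.30 in macrophages and -0.38 for Mif in T cells, none passing. In the mixed libraries alone, Mif changed sign in macrophages (0.057), monocytes (0.13) and T cells (0.046), and Ddt was -0.16 in line cells and -0.42 in macrophages. Genes called there were 136, 336 and 9 in line cells, macrophages and T cells. Mixed library 1 gave -0.20 and -0.60 for Ddt in line cells and macrophages and -0.18 and -0.083 for Mif in macrophages and T cells, and mixed library 2 gave -0.23 and -0.77 for Ddt and 0.13 for macrophage Mif. Single-line libraries gave Ddt -0.15 and -0.39. Line cell Ddt was -0.10 without day 0. T cell Mif no longer passed without the low-count filter (-0.25, 601 genes called), with the gate threshold doubled (-0.25) or without the cells of most UMIs (-0.32). Monocyte Mif passed at -0.77 with the other hashtag call. Leaving out each line in turn gave -4.32 to -2.33 for Mif and -0.20 to -0.10 for Ddt in line cells, -0.58 to -0.33 and -0.58 to -0.25 in macrophages, -0.58 to -0.19 and -0.59 to 0.14 in T cells, -0.88 to -0.15 for monocyte Mif, and without lines 15, 19 or 24 (line 18 was not left out), -0.97 to -0.43 for Mif in CD8 T cells, which passed without line 24. Calls then ranged from 693 (without line 24) to 2923 in macrophages, with 1394 without line 15, and from 41 (without line 24) to 352 in T cells, with 143 without line 18. The host share of Ddt, KO minus control, was -9.68 percentage points in mixed libraries and -1.79 with unresolved cells counted as host, and -13.0 to 0.43 without each line, changing sign without line 19 and at -4.10 without line 15. Day 16 against day 0, Ddt passed in line 19 alone (0.28), and it was -0.40 in line 18 alone, which has 1 day 0 sample. Without thinning, 50.6% of KO and 92.2% of control line cells held a Mif UMI. Classes with few cells limit what could be tested. The lines share no number across groups, and the letters of the hash sheet (A and B single-line, C mixed) are not said to pair samples. The replicate block by letter, added after seeing the data like that by library and day, changed no call. The replicate block by library and day within the mixed libraries gave -0.21 and -0.64 for Ddt in line cells and macrophages, -0.065 and -0.18 for Mif in macrophages and T cells and -0.17 for monocyte Ddt, a change of sign, with 68, 363 and 8 genes called in line cells, macrophages and T cells, and line cell Mif at -2.31 still passed.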

Other observations

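Some classes were too rare for a test and were read from sums over all samples of a group, with exact Poisson intervals that cover counting error only. Fibroblasts, the matrix-making cells of the stroma, held 1180 CPM of Mif in KO (1114 to 1249) and 1089 in control samples (981 to 1207). Endothelial cells held 752 and 938 CPM of Mif, and natural killer cells 927 and 912. Type 1 conventional dendritic cells held 106 CPM of Ddt in KO and 66.0 in control cells, from 50 and 10 UMIs. Neutrophils of KO samples held 33 Mif UMIs (478 CPM), and 206 CPM without mixed library 2 or 803 without the library of line 19.

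The 3 WT samples, which the labels put in no group, held 67.2, 75.1 and 81.8 CPM of Ddt in line cells. In their T cells Mif was at 1346, 1414 and 1534 CPM and Ddt at 78.9, 90.3 and 117. Ddt in their macrophages was at 90.3, 113 and 132 CPM.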
